A study of Mus musculus with 15 samples.

Results

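The measurements below follow 10 endothelial genes through single microdissected mouse proximal tubules and whole kidney: Pecam1, Cdh5, Plvap, Emcn, Kdr, Flt1, Tek, Eng, Egfl7 and Ehd3. They were chosen by symbol, and all 10 were found, each on 1 row of a table of 47069 genes. The study sequenced polyA RNA, amplified with a kit for very low input, from 12 single tubules labelled PTS2 and from 3 whole kidney libraries. All came from male C57BL/6 mice aged 2 months, and no group was treated. The tubules fall in 3 sets, m1, m2 and m3, of 4 tubules each. The labels do not say what the letter m stands for, or whether tubules or kidney libraries came from separate animals, so p-values measure only the spread between these libraries. Values are TPM, transcript abundances scaled to transcript length and to a common total of 1000000 per library. TPM keep no record of depth, so the depth behind each value is unknown and no counting error is attached to it.

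Endothelial cells line every blood vessel. In the kidney cortex, peritubular capillaries lie against the basal side of the proximal tubule, and their thin wall is perforated by fenestrae that are closed by diaphragms. The glomerular capillaries are a separate bed, fenestrated but in the adult largely without diaphragms. Renal epithelium secretes VEGF-A, which acts on receptors of the nearby endothelium. In bulk libraries such as these, fewer endothelial cells and less RNA per endothelial cell cannot be told apart.

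The tubules carried proximal tubule genes, but not evenly. Of 8 such genes 2 were lower, 2 were higher and 4 were not called. The phosphate transporter Slc34a1 was at 73.7% of its kidney mean (not called), and the fatty acid transporter Slc27a2, called higher, at 198%. Slc7a13, a transporter known from the late segment, was called higher at 233%. Slc5a2, a glucose transporter of the early segment, was at 0.112%, and Slc22a8, an organic anion transporter named after its values were seen, at 25.05%. Both were called lower, Slc5a2 through its kidney level alone in the fit. Slc22a6, another organic anion transporter on the list and also named after its values were seen, was at 120%. It was not called (limma adjusted p = 0.670). The labelled segment was therefore not settled by these genes. Some libraries stood apart. Replicate 3 of set m3 held 1441 TPM of 5 thick ascending limb markers, and the median of the 12 tubules was 10.7 TPM. Replicate 4 of set m1 was next, at 55.8 TPM, and the kidney libraries held 2425 to 2723 TPM. In replicate 2 of set m1, 233 of 11300 genes (those with a PTS2 mean of at least 1 TPM) were more than 4 times below their lowest value in the other 11 tubules, and in each of those 11 tubules between 0 and 11 genes were. Kdr and Ehd3 were among the 233.

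All 10 genes had values above 0 in all 12 tubules, at levels far below whole kidney. The lowest were 0.02 TPM for Ehd3 (replicate 2 of m1) and 0.05 TPM for Cdh5 (replicate 4 of m3). Without counts, such values do not establish detection. Plvap, Emcn and Egfl7 were the most abundant in both tissues, and Cdh5 the least. In whole kidney the means ran from 134.5 ± 8.82 TPM (SD, n = 3) for Plvap through 86.2 ± 5.10 TPM for Emcn and 62.3 ± 7.20 TPM for Egfl7 to 1.61 ± 0.346 TPM for Cdh5. In the tubules they ran from 23.97 ± 12.6 TPM (SD, n = 12) for Plvap through 11.1 ± 5.52 TPM for Emcn and 10.2 ± 5.11 TPM for Egfl7 to 0.204 ± 0.0796 TPM for Cdh5. In the tubules Emcn exceeded Egfl7 in 7 of 12 libraries, which is within their spread. The 6 genes between Egfl7 and Cdh5 had tubule means between 1.76 and 3.24 TPM, and neighbours in that order did not differ beyond their spread. In whole kidney the means of these 6 fell in another order, with Ehd3 first (22.7 ± 4.35 TPM) and Flt1 last (11.5 ± 1.27 TPM). Ehd3 exceeded Tek, the next gene, in only 2 of 3 libraries and within their spread, so its first place was not settled. Flt1 was below Pecam1, its neighbour, in 3 of 3 libraries and beyond their spread.

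**Figure D1:**
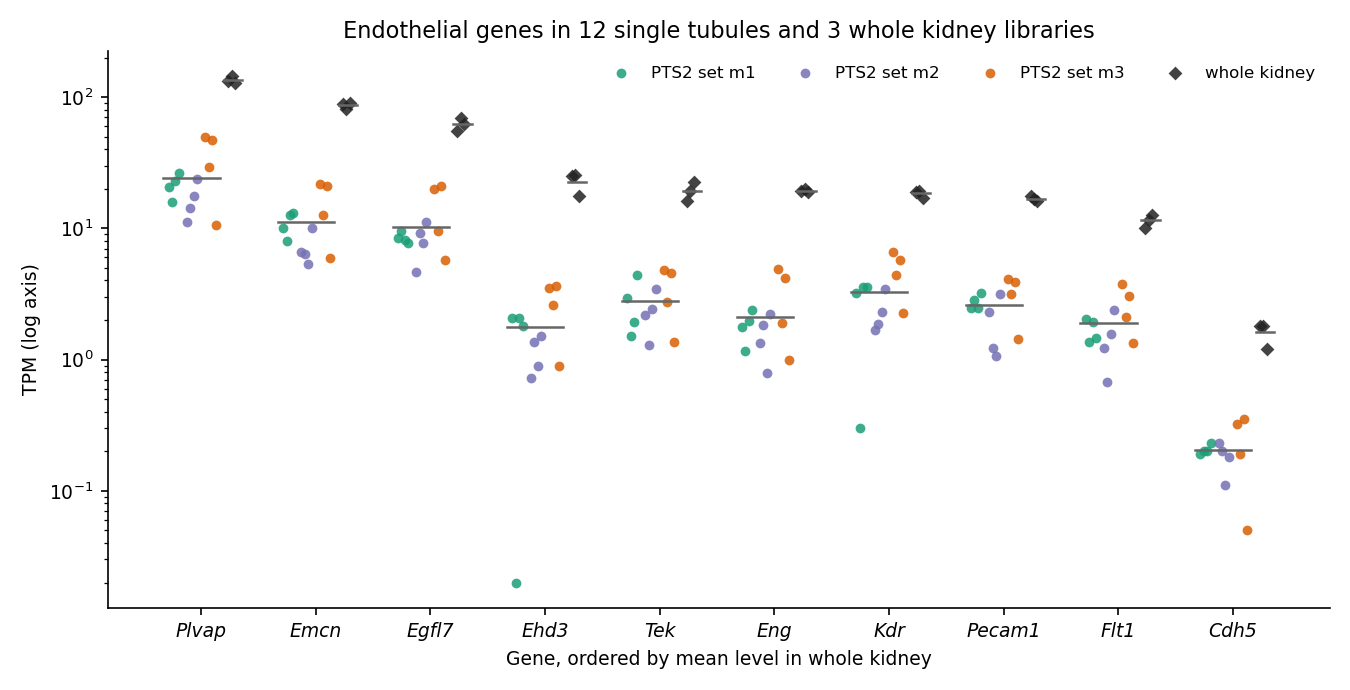
TPM (log axis) of the 10 endothelial genes in each of 12 PTS2 tubules (circles, coloured by set) and 3 whole kidney libraries (diamonds); horizontal lines are means. For each gene every tubule lies below every kidney library, and replicate 2 of set m1 is the low point for Kdr (0.3 TPM) and Ehd3 (0.02 TPM).

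Sequences upstream of RefSeq starts are shown for 3 of the genes, all lower in the tubules. They set Flt1 and Emcn, which had matches to the letters GGAAG, beside Ehd3, which had none. Promoter windows were matched by symbol for 7 of the 10 genes, from RefSeq on build GRCm38.p6, and only the 250 bases before each start were searched. Pecam1, Cdh5 and Plvap had no entry. Capitals mark matches to GGAAG on either strand. GGAAG is a longer form of GGAA, the core bound by ETS factors (a family that includes several regulators of endothelial genes). GGAA followed by other letters was not counted. The Ehd3 window holds such letters (ggaac), so it lacks GGAAG but not GGAA. The Flt1 bases lie at chr5:147726012-147726261 on the minus strand, those of Emcn at chr3:137340828-137341077 on the plus strand and those of Ehd3 at chr17:73804591-73804840 on the plus strand. All are printed 5′ to 3′ on the gene's strand. In the GENCODE coordinates given below Ehd3 starts at 73804134, so its RefSeq window lies inside the gene, as do the windows of Egfl7. The Emcn window runs past the GENCODE start at 137341067. The bases before the GENCODE start of Ehd3 were not searched.
Flt1: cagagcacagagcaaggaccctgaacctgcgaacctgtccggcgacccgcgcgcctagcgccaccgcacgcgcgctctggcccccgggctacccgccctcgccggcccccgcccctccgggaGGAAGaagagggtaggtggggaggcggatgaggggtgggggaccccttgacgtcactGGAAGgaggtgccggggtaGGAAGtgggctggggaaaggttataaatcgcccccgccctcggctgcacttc
Emcn: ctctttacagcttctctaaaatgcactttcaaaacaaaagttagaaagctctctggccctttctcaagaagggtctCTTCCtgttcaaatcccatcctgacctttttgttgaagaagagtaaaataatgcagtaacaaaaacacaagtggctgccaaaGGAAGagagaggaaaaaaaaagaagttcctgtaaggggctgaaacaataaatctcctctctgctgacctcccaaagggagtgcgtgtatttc
Ehd3: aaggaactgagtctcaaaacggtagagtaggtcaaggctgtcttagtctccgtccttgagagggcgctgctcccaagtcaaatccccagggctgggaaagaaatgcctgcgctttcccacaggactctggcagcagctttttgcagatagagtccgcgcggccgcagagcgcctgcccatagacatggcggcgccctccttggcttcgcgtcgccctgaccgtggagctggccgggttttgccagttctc
The 7 genes have 9 windows, since Egfl7 has 3. At least 1 match was found in 6 of the 9 windows, and 64.1% of all 32851 promoter windows hold one. Flt1 had 3 matches and 1 window of Egfl7 had 4, and 10.7% of all windows hold 3 or more. GGGCGG, the core bound by SP and KLF factors, was found in 3 of the 9 windows (32.7% of all windows), and ACAAAG or ACAATG, read by SOX factors, in 3 (25.2%). AGATAA, read by GATA factors, was found in 0 of the 9 (9.99% of all windows) and TAAACA, read by forkhead factors, in 0 (12.0%). Matches on both strands were counted and no motif contains another. These shares describe the letters in the windows only.

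The surface and junction genes were lower in every tubule. Pecam1 (ENSMUSG00000020717, chromosome 11, 106654217 to 106750628, GRCm38) encodes the adhesion protein CD31 of endothelial contacts. It was at 2.46, 2.83, 2.47 and 3.21 TPM in set m1, at 2.32, 1.23, 1.07 and 3.15 TPM in m2, and at 4.09, 3.18, 3.90 and 1.44 TPM in m3. The kidney libraries were at 17.7, 16.6 and 16.2 TPM, with no overlap. The log2 difference, PTS2 minus kidney on log2(TPM + 1), which understates differences of low genes, was -2.36 ± 0.24 (SE; limma adjusted p = 5.00e-07). Cdh5 (ENSMUSG00000031871, chromosome 8, 104101625 to 104144511) encodes VE-cadherin, the cadherin of endothelial adherens junctions. It ranged from 0.05 to 0.35 TPM in the tubules, with a median of 0.20 TPM, and was at 1.81, 1.81 and 1.21 TPM in kidney. Its mean over the 15 libraries was under the 1 TPM needed for the fit. An exact two-sided permutation test gave a log2 difference of -1.11 and p = 0.0022, the smallest that the 455 arrangements allow.

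The capillary wall genes Plvap and Emcn had the highest tubule levels of the 10 and were lower than in kidney. Plvap (ENSMUSG00000034845, chromosome 8, 71497765 to 71511752) encodes the protein of fenestral diaphragms. It was at 20.5, 15.9, 22.8 and 26.3 TPM in m1, at 11.2, 14.2, 17.6 and 23.7 TPM in m2, and at 49.2, 29.1, 46.8 and 10.6 TPM in m3. In kidney it was at 131.8, 144.4 and 127.4 TPM. Replicates 1 and 3 of m3 were the highest tubules and replicate 4 of the same set the lowest, and none reached the kidney range. Its log2 difference was -2.59 ± 0.37 (SE; limma adjusted p = 2.09e-05). Emcn (ENSMUSG00000054690, chromosome 3, 137341067 to 137432185) encodes endomucin, a sialomucin of capillary and venous endothelium. It was at 10.0, 8.05, 12.6 and 13.0 TPM in m1. The values were 6.54, 6.32, 5.38 and 9.96 TPM in m2, and those of m3 were 21.8, 12.6, 21.03 and 5.89 TPM. Kidney was at 88.0, 80.5 and 90.2 TPM. The same replicates of m3 were highest, and the groups did not overlap (log2 difference -2.98 ± 0.33, SE; limma adjusted p = 1.27e-06).

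The receptor genes were lower as well. Kdr (ENSMUSG00000062960, chromosome 5, 75932827 to 75978458) encodes VEGF receptor 2, the main signalling receptor for VEGF-A. It was at 3.22, 0.30, 3.54 and 3.55 TPM in m1. The values were 1.69, 1.87, 2.31 and 3.43 TPM in m2, and those of m3 were 6.55, 4.41, 5.76 and 2.26 TPM. In kidney it was at 19.1, 19.1 and 17.1 TPM. Outside replicate 2 of m1 its lowest value was 1.69 TPM, and its mean over those 11 tubules was 3.51 ± 1.56 TPM (SD), as against 3.24 ± 1.75 TPM over all 12. The log2 difference over all libraries was -2.32 ± 0.37 (SE; limma adjusted p = 6.92e-05).

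Flt1 (ENSMUSG00000029648, chromosome 5, 147561604 to 147726011) encodes VEGF receptor 1, which binds VEGF-A tightly and also exists as a soluble form. Its tubule values ran from 0.67 to 3.74 TPM with a median of 1.75 TPM, and its kidney values were 10.1, 11.7 and 12.7 TPM. They did not overlap, and the log2 difference was -2.15 ± 0.24 (SE; limma adjusted p = 9.89e-07). Tek (ENSMUSG00000006386, chromosome 4, 94739289 to 94874976) encodes TIE2, the receptor of the angiopoietins. It ran from 1.28 to 4.77 TPM with a median of 2.59 TPM and was at 16.3, 19.1 and 22.4 TPM in kidney, again without overlap (log2 difference -2.48 ± 0.28, SE; limma adjusted p = 1.36e-06). Eng (ENSMUSG00000026814, chromosome 2, 32646595 to 32682669) encodes endoglin, a coreceptor for BMP9 and TGF-β ligands. Its tubule values ran from 0.79 to 4.86 TPM with a median of 1.86 TPM, and kidney was at 19.2, 19.8 and 18.8 TPM (log2 difference -2.79 ± 0.29, SE; limma adjusted p = 4.88e-07).

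Egfl7 (ENSMUSG00000026921, chromosome 2, 26580014 to 26593120) encodes a secreted endothelial protein, and its gene hosts the microRNA miR-126. It was at 8.36, 9.48, 8.19 and 7.71 TPM in m1. The values were 4.66, 9.28, 7.70 and 11.2 TPM in m2, and those of m3 were 19.9, 9.53, 21.2 and 5.76 TPM. The kidney libraries were at 55.3, 69.6 and 62.0 TPM, above all tubules (log2 difference -2.60 ± 0.32, SE; limma adjusted p = 3.49e-06). Exons of Egfl7 overlap those of Agpat2 on the other strand, and exons of Eng overlap those of Fpgs. Without strand information, reads from such a shared stretch cannot be told apart. Agpat2 was at 60.5 TPM in the tubules and 53.9 TPM in kidney, and Fpgs at 91.7 and 65.3 TPM, so the mean of each neighbour was higher in the tubules. Their part in the values of Egfl7 and Eng was not tested.

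Ehd3 (ENSMUSG00000024065, chromosome 17, 73804134 to 73832094) encodes an endocytic recycling ATPase that in the kidney is known from glomerular endothelium. It was at 2.06, 0.02, 2.07 and 1.81 TPM in m1. The values were 0.72, 1.36, 0.90 and 1.51 TPM in m2, and those of m3 were 3.53, 2.58, 3.64 and 0.89 TPM. In kidney it was at 25.1, 25.3 and 17.7 TPM. Replicate 2 of m1 again stood far below its set, and replicates 1 and 3 of m3 were the highest. The log2 difference was -3.20 ± 0.35 (SE; limma adjusted p = 1.01e-06). It was the largest of the 9 genes in the fit on the deposited scale and with median-of-ratios scaling, but under quantile normalization Emcn had -2.78 and Ehd3 -2.74.

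Of the 12039 genes that entered limma's fit, 41.5% passed as lower in PTS2 (adjusted p threshold 0.05) and 9.68% as higher. All 9 of the endothelial genes in the fit were lower. Each had a tubule mean above 1 TPM as well, so none entered the fit through its kidney level alone. All 9 were also called lower with a fall of more than 1 on the log2 scale, as were 13.8% of the genes tested. Every tubule lay below every kidney library for each of these 9 genes and for 32.0% of the genes tested. The same held for Cdh5, which was not in the fit. The median log2 difference was -2.59 over the 9 genes and -0.27 over all genes tested. Of all calls 18.9% were higher in PTS2, 49.7% with median-of-ratios scaling and 64.4% with quantile normalization. The 9 endothelial genes were called lower under both scalings, with medians of -2.30 and -2.28.

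The share of the kidney level that was left in the tubules varied by gene. The tubule mean was 17.8% of the kidney mean for Plvap, 17.6% for Kdr, 16.6% for Flt1, 16.4% for Egfl7, 15.5% for Pecam1 and 14.5% for Tek. It was 12.9% for Emcn, 12.7% for Cdh5, 11.0% for Eng and 7.75% for Ehd3. The median over all genes tested was 82.0%. Ehd3 was the gene with the lowest share in 9 of the 12 tubules. Without replicate 2 of m1, its share was 8.44% and that of Kdr 19.0%.

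**Figure D2:**
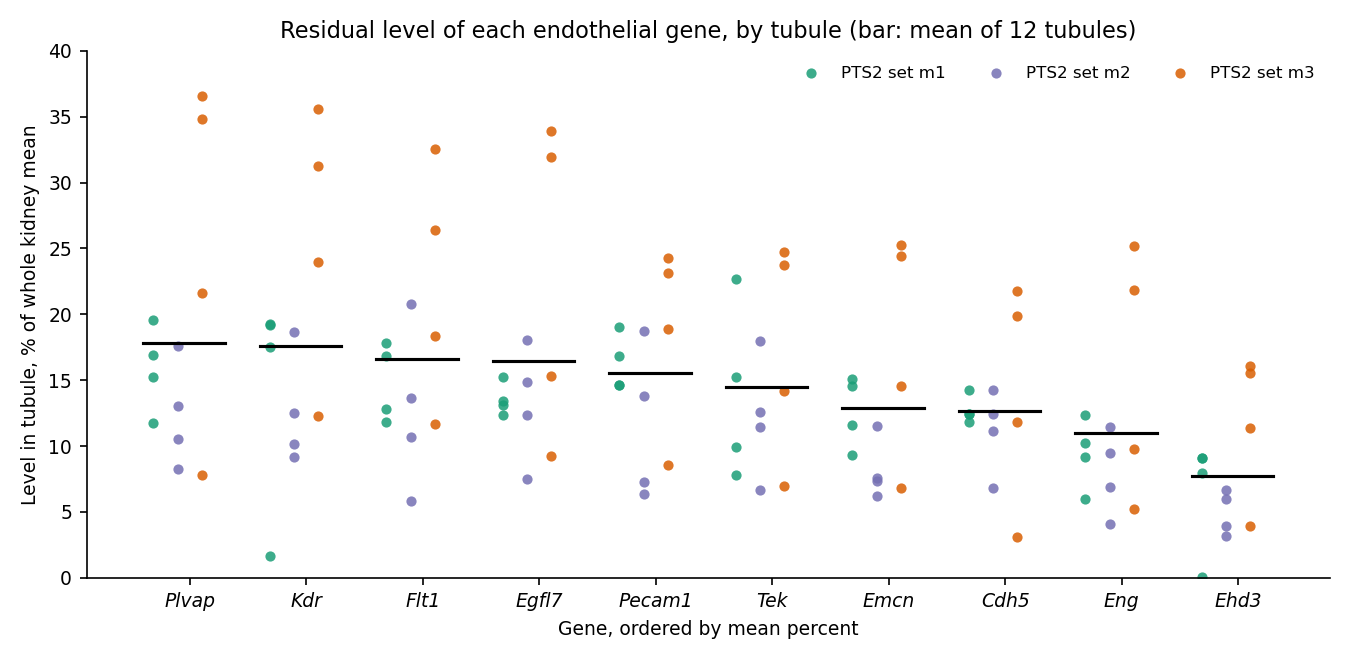
Level in each of 12 tubules as a percent of the mean of 3 whole kidney libraries, for each gene; circles are tubules coloured by set and bars are means of the 12 tubules. The means fall from 17.8% for Plvap to 7.75% for Ehd3, and the tubules of set m3 spread most widely.

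Ratios between genes of one library do not change when a library is multiplied by 1 factor, although quantile normalization does change them. Relative to Plvap, Ehd3 was at 13.9% to 19.0% in the 3 kidney libraries and at 0.126% to 10.1% in the tubules, with a tubule median of 7.48%, so the ranges did not overlap. Eng, at 13.7% to 14.8% of Plvap in kidney, was at 4.50% to 12.9% in the tubules, also without overlap. The other 7 ratios overlapped. Emcn was at 55.7% to 70.8% of Plvap in kidney, and 10 of 12 tubules were below that range. Kdr (median 13.4% in kidney, 13.99% in tubules) and Flt1 (8.07% and 8.53%) had like median ratios to Plvap in both. Plvap was taken as the reference because it was the most abundant, and these ratios were chosen after the values were seen and were not tested.

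Tubules differed widely from each other. The summed level of the 10 genes was lowest in replicate 4 of m3, at 30.5 TPM, had a median of 55.6 TPM and was highest in replicate 1 of m3, at 118.7 TPM, followed by replicate 3 of m3 at 114.5 TPM. The kidney sums were between 384 and 408 TPM. Replicates 1 and 3 of m3 held the 2 highest tubule values for each of the 10 genes. Replicate 4 of m3 was among the lowest 3 tubules for 9 of the 10. The median share of the kidney level over the 10 genes was 25.2% and 24.1% in these replicates 1 and 3, 7.42% in replicate 4, and between 8.41% and 17.8% in the other 9 tubules.

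**Figure D3:**
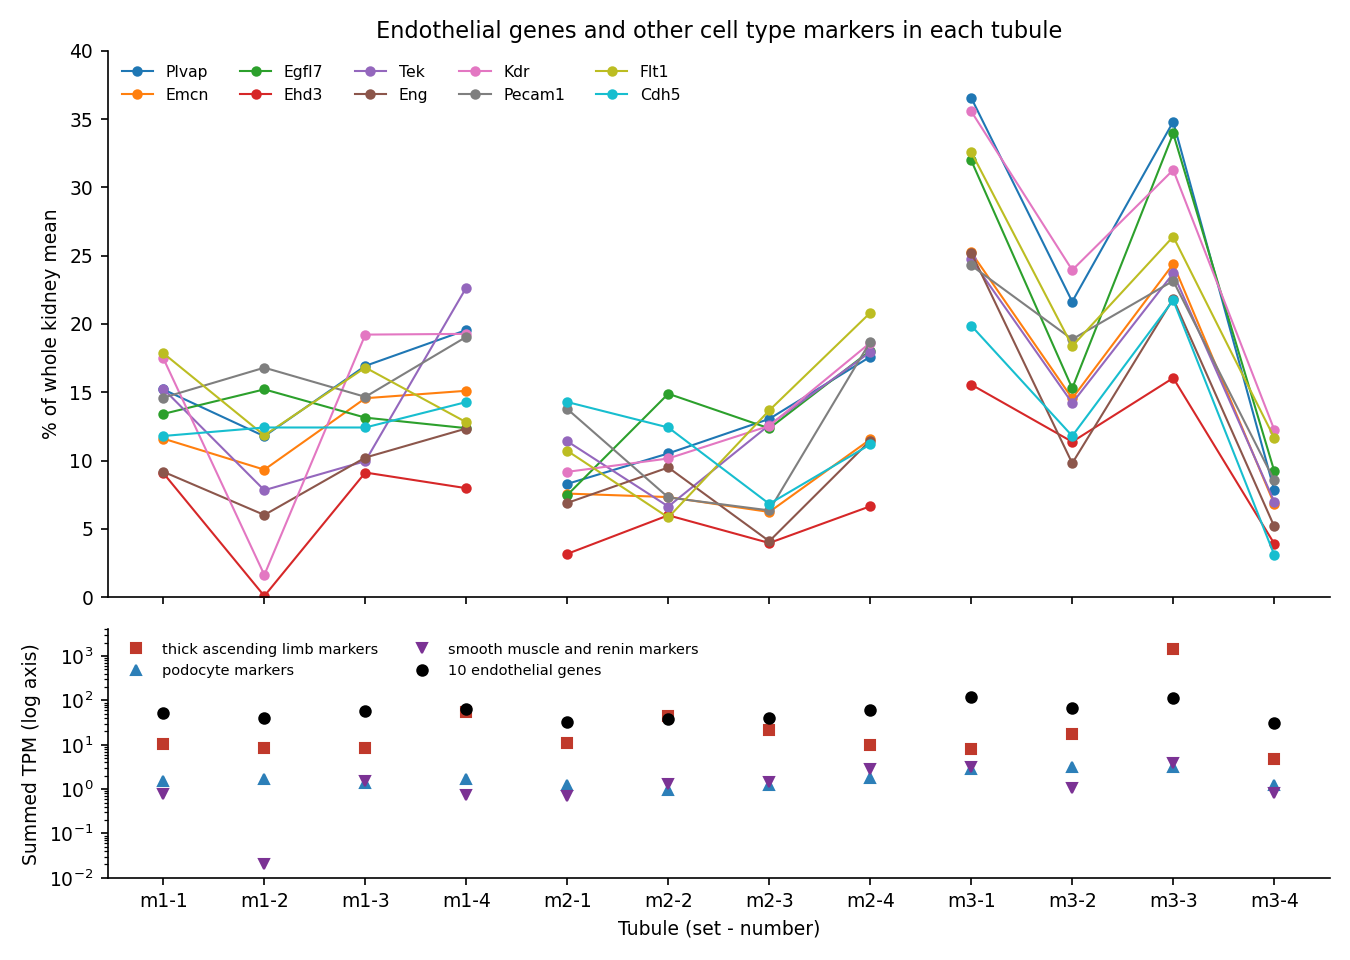
Upper panel: percent of the whole kidney mean for each of the 10 genes in each tubule, joined within sets. Lower panel: summed TPM (log axis) of the 10 genes and of markers of 3 other cell types; the genes peak together in replicates 1 and 3 of set m3, of which only replicate 3 has a high thick ascending limb sum (1441 TPM).

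Markers of other cells in these tubules were measured beside this. The thick ascending limb sum was 7.87 TPM in replicate 1 of m3 and 1441 TPM in replicate 3, while their endothelial sums were 118.7 and 114.5 TPM. Smooth muscle and renin markers (5 genes) summed to 3.10 and 3.97 TPM there, the 2 highest of the tubules, whose lowest value was 0.02 TPM. The kidney sums were between 170 and 195 TPM. Fibroblast markers (6 genes) were highest in replicate 1 of m3, at 5.37 TPM, with 81.4 to 102 TPM in kidney. Podocyte markers (5 genes) were between 0.97 and 3.21 TPM in the tubules and 91.6 to 114 TPM in kidney. The part of these cells in the endothelial values was not tested.

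None of the endothelial genes in limma's fit was called different between the 3 sets. At an adjusted p under 0.05 in limma's F test, 3.02% of 11300 genes differed among sets, and of the 9 endothelial genes tested 0 did. In limma's F test 1 of the 9, Emcn, had an unadjusted p under the 0.05 threshold, and its adjusted p was 0.294. By set, with 4 tubules in each, Emcn averaged 10.9 ± 2.32 TPM (SD) for m1, then 7.05 ± 2.00 TPM for m2 and, highest, 15.3 ± 7.54 TPM for m3. In the same order Plvap averaged 21.4 ± 4.39, 16.6 ± 5.37 and 33.9 ± 18.0 TPM. For all 10 genes the mean was highest in m3, and its SD was also the largest of the 3 sets. Without replicate 4 of m3, Emcn and Plvap passed (limma adjusted p = 0.0301 and 0.0347), so the call for these genes rests on that library.

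Levels of the 10 genes were correlated over the tubules, given here as a description. Over 12 tubules, Pearson's r of log2(TPM + 1) was above 0 for all 45 pairs, with a median of 0.76, a lowest value of 0.45 (Cdh5 with Kdr) and a highest of 0.97 (Kdr with Ehd3). The tubules share sets, and the values of 1 tubule share its library. Without replicates 1 and 3 of m3, the farthest from the median, the median was 0.57 over 10 tubules and 44 of 45 pairs were above 0. Kdr and Ehd3 share their low value in replicate 2 of m1, and without it r was 0.94.

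Of the genes most like this shared pattern, 11 of the first 50 were on the endothelial lists. Each gene with a PTS2 mean of at least 1 TPM was correlated with the mean of the standardised values of the 10 genes over the 12 tubules. The 5 closest of 11291 other genes were Tie1, Cd300lg, Robo4, Tmem204 and Plpp1. Tie1, the receptor that pairs with TIE2, had r = 0.97 and was at 0.77 to 4.57 TPM in the tubules, with its highest value in replicate 1 of m3, and at 15.3% of its kidney mean. Cd300lg, a receptor of capillary endothelium, had r = 0.95 and Robo4, an endothelial roundabout receptor, r = 0.94. Tmem204 had r = 0.94 and Plpp1, a lipid phosphate phosphatase, r = 0.92. The 5 genes were at 9.84% to 19.7% of their kidney means. With 10 tubules left, without replicates 1 and 3 of m3, their r was between 0.83 and 0.92. The median r of the 13 endothelial list genes at this level fell from 0.85 to 0.71. Plat fell from 0.63 to 0.04 and Cd34 from 0.79 to 0.38, and only Ecscr rose, from 0.40 to 0.53. The median r over the 11291 genes was 0.07 over 12 tubules and -0.06 over those 10.

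**Figure D4:**
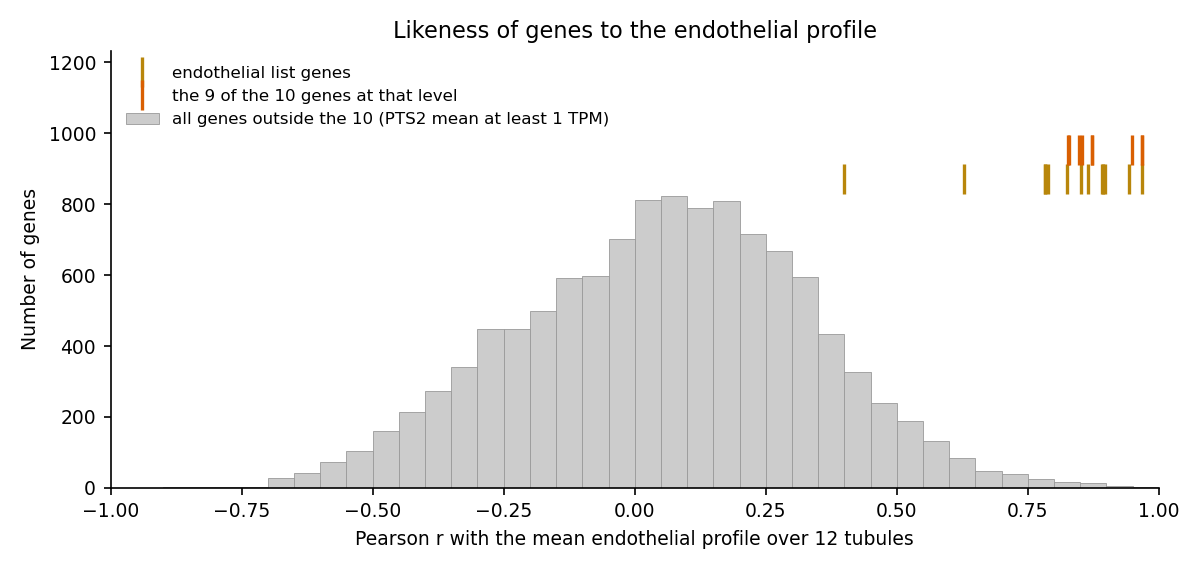
Number of genes outside the 10 by Pearson r with the mean endothelial profile over 12 tubules (bars), with the 13 genes of the endothelial lists at this level and 9 of the 10 genes marked above. The bars have a median of 0.07. The 9 genes lie between 0.83 and 0.97, in part because each belongs to the mean with which it was correlated. Of the 13 list genes, which are not in that mean, 11 are among the 50 highest. Plat and Ecscr are the lowest, at 0.63 and 0.40.

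Other endothelial genes were lower too. A list of 26 further endothelial genes, Tie1 among them, had 20 in the fit, of which only 12 had a tubule mean of at least 1 TPM. All 20 were called lower, but the other 8 entered the fit through their kidney level, so their direction was fixed by the filter. Its most abundant members in kidney were the junction protein Esam, the calcitonin receptor partner Ramp2, the adhesion receptor Adgrl4 and the surface sialomucin Cd34, left at 9.52%, 17.0%, 9.33% and 12.0% of their kidney means. The median share left over the 26 genes was 10.9%. Cldn5, a tight junction protein singled out after its values were seen, was at 0 in 7 tubules and at most 0.25 TPM in the others, with a kidney mean of 8.65 ± 0.709 TPM, so 0.569% was left.

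Genes known from single vascular beds were left at different levels. Of the list for glomerular endothelium, Plat, the tissue plasminogen activator, was at 1.17 ± 0.836 TPM in the tubules (SD, n = 12) and 66.6 ± 7.00 TPM in kidney (SD, n = 3), or 1.76% (limma log2 difference -5.03 ± 0.26, SE; adjusted p = 6.05e-11). Nostrin, a nitric oxide synthase trafficking protein, was at 8.96%, and the transcription factors Tbx3 and Gata5 at 4.42% and 0.373%, all with tubule means of at most 0.227 TPM. Of 6 arterial genes, 4 were in the fit, each through its kidney level alone. Their direction was therefore fixed by the filter, and only their levels are given. The guidance cue Sema3g was at 1.78% of its kidney mean, the connexin Gja4 at 7.62%, the Notch ligand Dll4 at 15.97% and the ephrin Efnb2 at 9.15%. Of the lymphatic genes Flt4, Prox1 and Lyve1 were at 13.4%, 1.49% and 2.73%, with none in the fit, and Ccl21a was listed at 0 in all libraries. Flt4 and Prox1 are not restricted to lymphatic cells in the kidney.

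**Figure D5:**
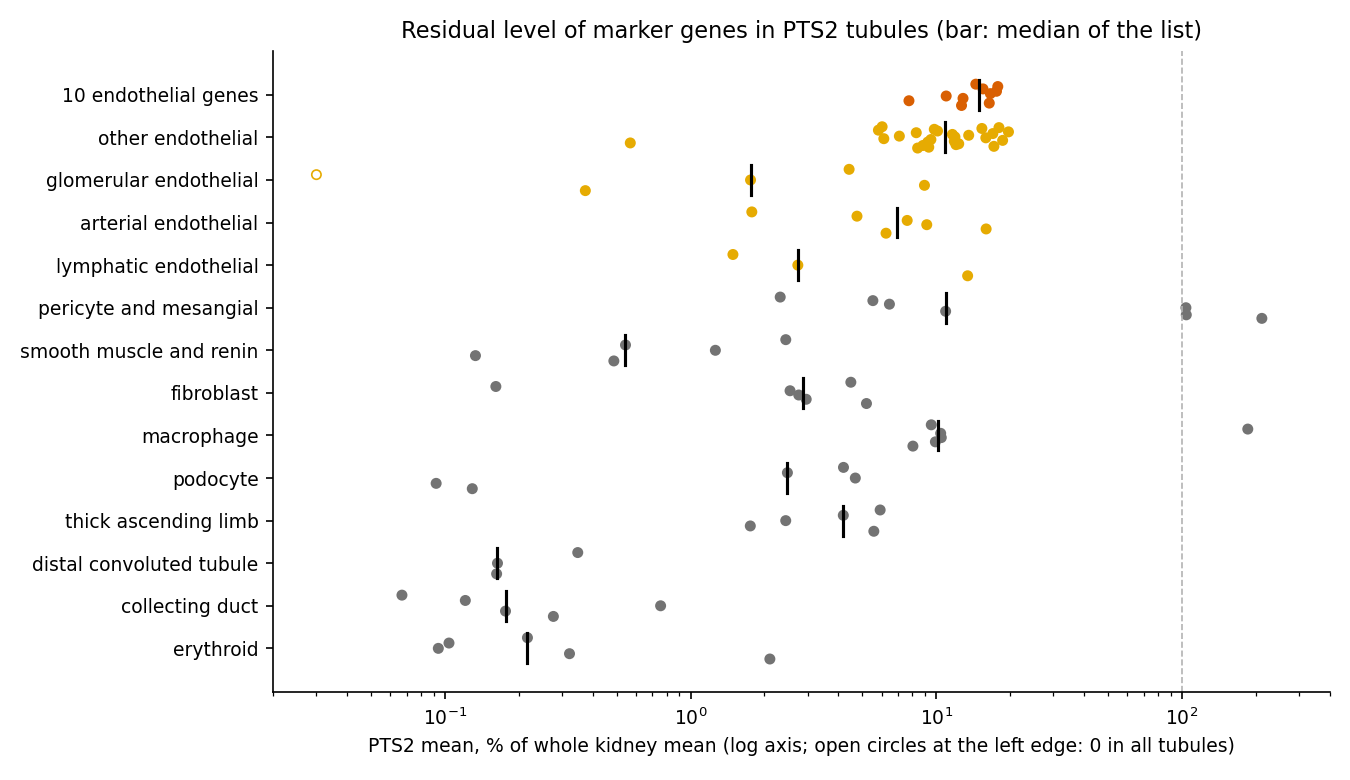
PTS2 mean as a percent of the whole kidney mean (log axis) for each gene of 14 lists; circles are genes, vertical bars list medians, open circles genes at 0 in all tubules, and the dashed line marks the kidney level. The 10 endothelial genes lie between 7.75% and 17.8%. The medians of podocyte, distal convoluted tubule, collecting duct and erythroid markers are at 2.48% or below. Those of pericyte and mesangial markers (10.9%) and of macrophage markers (10.2%) are within the range of the 10 genes.

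The VEGF ligands Vegfa and Vegfb were lower by less than the receptors, and the angiopoietins were near 0 in the tubules; the size of these differences was not compared by a test. Of 7 VEGF and angiopoietin ligand genes 5 were in the fit and 4 were called lower, Angpt1 and Angpt2 among them, which entered through their kidney level alone. Vegfa was at 47.2 ± 7.26 TPM in the tubules and 87.0 ± 7.499 TPM in kidney, or 54.2% (limma log2 difference -0.88 ± 0.13, SE; adjusted p = 2.67e-05). Vegfb, a ligand of Flt1, was at 25.5 ± 3.31 TPM and 58.9 ± 7.41 TPM, or 43.3%. Vegfc, named after its values were seen as the gene not called, was at 2.22 ± 0.725 TPM and 2.53 ± 0.419 TPM, with an adjusted p of 0.570, but it was called higher under quantile normalization (log2 difference 0.66, adjusted p = 0.0157). The TIE2 ligands Angpt1 and Angpt2 were at 1.43% and 4.34% of their kidney means. Over the 12 tubules, r of Vegfa with the endothelial profile was -0.09.

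Of 5 further receptors and partners, 3 were in the fit and called lower, Ptprb through its kidney level alone. The semaphorin and VEGF coreceptor Nrp1, which other cells also express, was at 23.7%, Tie1 at 15.3%, the phosphatase Ptprb at 11.6% and Nrp2 at 6.95%. Of 14 genes of the endoglin pathway 10 were in the fit, and all 10 were called lower, 1 of them (Acvrl1) through its kidney level alone. Under median-of-ratios scaling 9 were lower, and under quantile normalization 6. Over all genes tested, 41.5% were called lower on the deposited scale and the median share left was 82.0%. The BMP target genes Id3 and Id1 were at 8.93% and 30.9%, and the shared signal transducer Smad4 and the receptor Tgfbr2 at 68.3% and 71.2%. Acvrl1, the receptor that partners endoglin, is named for that role, after its values were seen, and was at 8.51%. The 4 catenins that bind cadherins, which epithelial cells use as well, were left at 60.1% to 72.0%, and all 4 were lower, with 3 of 4 lower under each of the other scalings.

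The relatives of Ehd3 were left at very different levels. Beside Ehd3 at 7.75%, Ehd4 was at 6.75% (1.45 ± 0.757 TPM and 21.5 ± 0.751 TPM) and Ehd2 at 2.78%. Ehd1 was at 85.5 ± 10.4 TPM in the tubules and 94.1 ± 10.1 TPM in kidney, 90.9%, with overlapping libraries (limma log2 difference -0.14 ± 0.11, SE; adjusted p = 0.283), and its difference changed sign under median-of-ratios scaling (0.15). Ehd4 was also far below the other tubules in replicate 2 of m1, at 0.01 TPM. Reads that these related genes share could be divided between them. Flt4, the relative of Kdr and Flt1, was at 0.283 ± 0.223 TPM and 2.11 ± 0.375 TPM, and Tie1, the relative of Tek, at 1.87 ± 1.13 TPM and 12.2 ± 1.72 TPM.

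Genes of cells that accompany capillaries were left at widely different levels, some within the range of the 10 genes. Among the most abundant of 7 pericyte and mesangial genes, Pdgfrb was at 5.52%, Rgs5 at 2.32% and Itga8 at 10.9%, whereas the channel subunit gene Kcnj8 was at 104% of its kidney mean. Of the 7 genes 5 were in the fit. Pdgfrb and Rgs5 were called lower but entered through their kidney level alone. Abcc9 (named after its values were seen) was called higher, near the threshold on the deposited scale (limma adjusted p = 0.0435) and with overlapping libraries. Under quantile normalization 3 genes were higher. Macrophage genes also differed among themselves. C1qa, C1qb and C1qc, subunits of complement C1q, were at 9.93% to 10.5%, and Csf1r was at 186%. The call of Csf1r as higher was near the threshold on the deposited scale (limma adjusted p = 0.0481), and its libraries overlapped. Hemoglobin and heme genes of red cells (5 genes) summed to 0.72 ± 0.35 TPM in the tubules and to 363 ± 188 TPM in kidney, 0.199%. The summed level of the 10 endothelial genes was at 15.3% of kidney.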

How the data were processed

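RNA-Seq values of 12 PTS2 tubules and 3 whole kidney libraries were used. The authors deposited TPM, 1 column per library. Per the submitters' processing notes, STAR 2.5.1b, RSEM 1.2.31 and build GRCm38.p5 were used. The annotation release and filters are not given in the sources used here. The unit was read from the column sums.

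Groups came from the description labels. The 10 genes, the marker lists and the tests were chosen with earlier results of these data known. On log2(TPM + 1), limma 3.58.1 (R 4.3.3, mean-variance trend) gave the fold changes and p-values. A gene entered a fit if its libraries averaged 1 TPM or more, and p-values were adjusted by Benjamini-Hochberg over all of them, with a threshold of 0.05. Sets entered as a correlated block (correlation 0.0669). Cdh5, under the filter, had an exact permutation test. The fits were tested on simulated data. Named list genes were the up to 4 highest in kidney, and the relatives of the 10 genes. Genes named outside this rule are stated as such. Coordinates come from GENCODE M21 (GRCm38). Python 3.11.15 and matplotlib 3.10.9 were used. The alternatives were another pseudocount, filter or scaling, the replicate number as a block, no set correlation, sets averaged to 1 value, and leaving out each library in turn.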

Additional observations from a re-analysis of the deposited data

Results flagged for a closer look

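For each of the 10 genes and each set of 4 tubules, the distance of the extreme tubules to the nearest one was divided by the set's range. Of 30 such comparisons 2 stood out, and 1.5 would be expected by chance. Both were in replicate 2 of set m1. Kdr was at 0.30 TPM there, and the nearest tubule of the set at 3.22 TPM. Ehd3 was at 0.02 TPM, and the nearest at 1.81 TPM. The other 8 genes in that tubule were between 6.02% (Eng) and 16.8% (Pecam1) of their kidney means. Further list genes, named after their values were seen, that were more than 4 times below their lowest value in the other 11 tubules were Ehd4, C1qc, Dcn, Aqp2, Kcnj1 and Ptger3. No cause was tested.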

How the results depend on the processing

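The 9 endothelial genes in the fit were called lower in PTS2 under all 23 alternatives, and without a filter on low values Cdh5 passed as well, which made 10. Over the alternatives the highest adjusted p of any of the 9 was 0.000985, for Kdr. Leaving out single libraries moved their log2 differences little, for Ehd3 between -3.36 and -3.08. The log2 difference of Cdh5 ran from -2.52 (pseudocount 0.1) to -0.42 (quantile normalization) around -1.11. With 1 mean per set it was -1.11 and the exact permutation p was 0.10, the smallest that 3 against 3 allows. Among sets, 0 of the 9 passed, and 0 to 2 with single libraries left out. The counts over all genes moved more. Without a filter, 9399 of 30969 genes were called between PTS2 and kidney, 8325 of them lower, and 196 of 30134 among sets. The main counts were 6161, 4996 and 341. Genes called lower numbered 2860 with median-of-ratios scaling and 2266 with quantile normalization. With single tubules left out, 197 to 563 genes were called among sets. The lowest count was without replicate 1 of m3 and the highest without replicate 1 of m1. Counts were 220 without replicate 2 of m2, 226 without replicate 2 of m3 and 209 without replicate 3 of m3. Without the 2 tubules with the most thick ascending limb signal (replicate 3 of m3 and replicate 4 of m1, chosen after seeing the data; replicate 2 of m2, at 45.8 TPM, was kept) the count was 175, and 9 and 0 of the endothelial genes passed in the 2 comparisons. Under the replicate block, 888 genes were called among sets and again 0 of the 9. Same-numbered tubules of different sets deviated together by a mean r of 0.14 over 12 pairs, with a lowest r of 0.03, and 10 of 12 tubules correlated best with their own number, which is a hint from the data, not the design. The cause of these changes was not tested. TPM carry no depth, so low values such as those of Cdh5 have no counting error.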
